A study of Danio rerio with 21 samples.

Results

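The genes described here are the caspases, the Bcl2 family, the death receptors with their adaptors, the inhibitors of apoptosis and a few stress genes tied to them, followed in zebrafish hearts after cryoinjury. The 46 genes were chosen by symbol for their known place in the cell death machinery. Of these, 41 had an array feature of their own among the 19260 genes with such a feature. A total of 35 passed the signal filter, which asked for a log2 signal over 6 on at least 1 array, out of 11687 genes that passed. The 35 comprised 20 death-promoting genes, 9 survival genes and 6 genes with roles on both sides. Injured pools, 3 for each of 6 times, were taken 4 hours after cryoinjury (4 hpi) and then on day 1, day 3, day 7, day 14 and day 90 (dpi), and compared with 3 pools of uninjured control hearts. All fish were TU strain adults between 10 and 11 months old, and each pool held 5 heart ventricles. The methods do not say whether this age was at surgery or at harvest. Any difference in age at 90 dpi can therefore not be told apart from the time since surgery. Whole ventricles were used, so each pool mixed the frozen area with the tissue around it. The labels and methods call the controls uninjured, whereas a supplementary sheet names them sham, and they are taken here as uninjured. There was 1 set of controls, without a sham operation at each time, so the effects of freezing, of opening the chest and of the time since surgery cannot be told apart. The labels call the 3 pools of a group biological replicates.

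Apoptosis runs along 2 routes that meet at the executioner caspases. In the mitochondrial route, BH3-only proteins sense damage and release the pore-formers Bax and Bak from guardians such as Bcl2, Bcl-xL and Mcl1, after which proteins that leak from the mitochondria lead Apaf1 to activate caspase 9. In the other route, receptors such as Fas recruit the adaptor Fadd and caspase 8, which the decoy c-FLIP can block. Heart muscle cells are rich in mitochondria, and in mammals loss of these cells by apoptosis and necrosis follows an infarct.

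The file held the log2 signals of 21 arrays, with array medians of 5.138 to 5.196. Correlations between arrays were 0.952 to 0.977 within groups and 0.844 to 0.969 between groups. Cardiomyocyte genes had a mean log2 signal of 11.83 to 12.26 over all pools (10 of 12 listed markers measured), as the label heart ventricle says. All changes below are differences in log2 signal from the control mean with the SE of 1 limma fit over all arrays, so that a fold is 2 to the power of the difference. A gene was called at an adjusted p under 0.05 over all 35783 tested features. The 6 comparisons with control share the same 3 control pools. In such bulk samples, fewer cells of a type and less RNA per cell cannot be told apart.

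Death-promoting and survival genes were raised side by side within hours of the injury. At 4 hpi 23 of the 35 genes were higher than in control hearts and 2 were lower, with a median difference of 0.74. Over all tested features 21.3% were higher and 17.5% lower, with a median of 0.05. Of the death-promoting genes 14 of 20 were higher and 2 lower, and of the survival genes 7 of 9 were higher and none lower (limma, with the same 0 at an unadjusted p under 0.05). In 11 of the 35 genes the control mean was under the filter's log2 signal of 6. These were baxb, bbc3, bcl2l11, bmf1, casp8, casp9, caspa, fadd, fas, gadd45bb and tnfrsf21. Only bcl2l11 among them had a control pool over 6, so the others passed through injured pools alone. Such a filter favours higher calls in these genes, and this limit holds for each of their higher calls below. All 11 were higher at 4 hpi. Among the other 24 genes 12 were higher and 2 lower. None of the 11 is a survival gene, so for the higher calls class and control signal cannot be told apart. Of the death-promoting genes with a control mean of 6 or more, casp3b, apaf1, baxa and bida were higher, and diabloa and aifm1 were lower. With no filter, 25 of the 41 measured genes were higher and 2 lower. The share of all features in that fit is not given, so these counts cannot be set against the array as a whole.

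**Figure D1:**
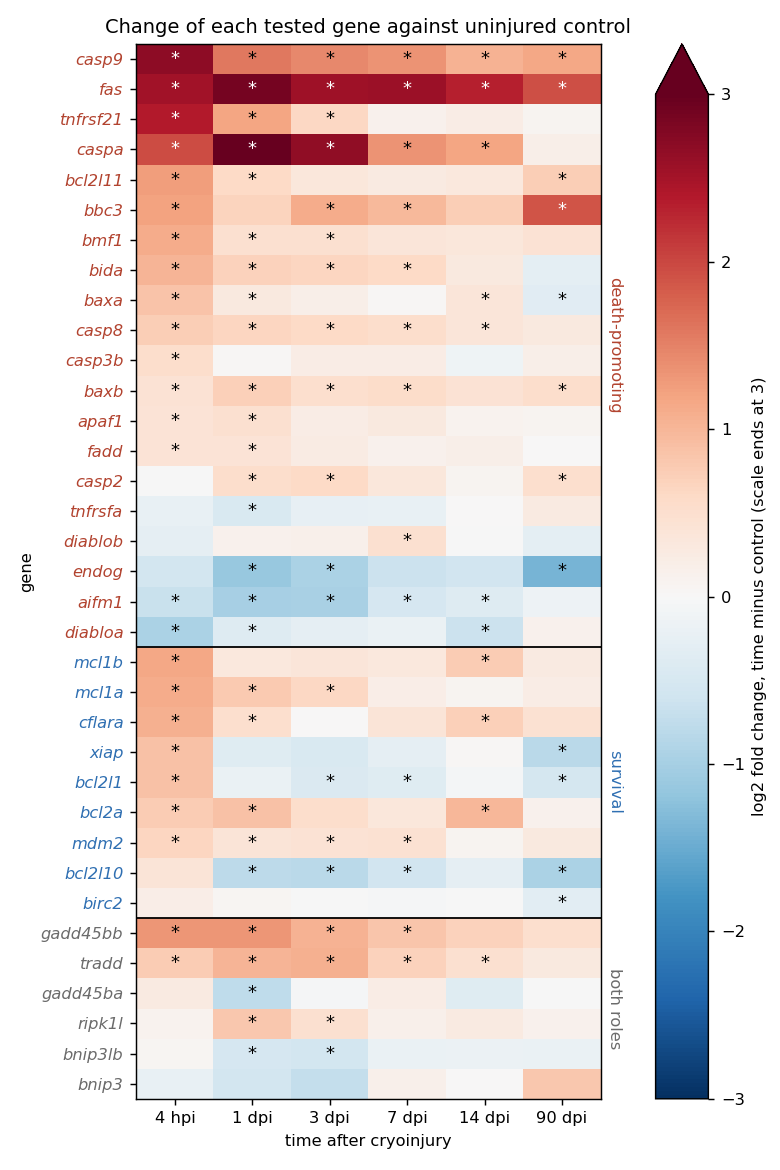
Log2 fold change of each of the 35 tested genes (rows, by class and then by the value at 4 hpi) at each time after cryoinjury (columns), with red for higher and blue for lower than in control and a star for an adjusted p under 0.05. The genes casp9 and fas are starred in red at all 6 times, and at 90 dpi the 4 starred survival genes are all blue.

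Among the caspases, casp9, the initiator of the mitochondrial route, changed most at 4 hpi. Its log2 signal was 7.79, 8.22 and 8.09 in the 4 hpi pools, against 5.52, 5.34 and 5.22 in control pools. No pool of the 2 groups overlapped, and the difference was 2.67 ± 0.26 (SE), a 6.38-fold rise (adjusted p = 8.8e-07). At 1, 3, 7 and 14 dpi the differences were 1.59, 1.44, 1.34 and 1.03, each called. The 90 dpi pools were uneven, at 5.67, 7.12 and 6.75. The lowest of them lay just above the highest control pool, and the mean difference was 1.15 ± 0.26 (adjusted p = 0.0072). The call at 90 dpi held without any 1 pool, but not in a fit of the 6 arrays alone (adjusted p = 0.095). The call at 14 dpi was lost without control replicate 3, 14 dpi replicate 1 or 14 dpi replicate 3 (adjusted p = 0.054 to 0.065).

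The other apoptotic caspases moved less. The death receptor caspase casp8 was higher by 0.74 ± 0.12 at 4 hpi and by 0.64, 0.60 and 0.52 at 1, 3 and 7 dpi. Its call at 14 dpi (0.36, adjusted p = 0.049) was lost when any of 5 pools was left out, with an adjusted p of up to 0.21. The executioner casp3b was higher only at 4 hpi among the 6 times (0.52 ± 0.18), and without 5 of the 6 pools in turn this call was lost (adjusted p = 0.052 to 0.14). The initiator casp2 differed from control by -0.02 at 4 hpi and was higher at 1 dpi (0.52) and 3 dpi (0.60). At 90 dpi casp2 had log2 signals of 7.77, 7.89 and 7.33, against 7.18, 7.09 and 7.19 in control, a difference of 0.51 ± 0.14 that no longer passed without control replicate 2, control replicate 3, 90 dpi replicate 1 or 90 dpi replicate 2 (adjusted p = 0.051 to 0.11). The scaffold gene apaf1, whose protein assembles with caspase 9, was higher by 0.42 at 4 hpi and 0.48 at 1 dpi.

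The inflammatory caspase caspa, a zebrafish relative of mammalian caspase 1, had its largest difference from control at 1 dpi. Its log2 signals were 5.08, 5.64 and 5.34 in control, 7.51, 7.73 and 6.72 at 4 hpi, 8.63, 9.43 and 9.61 at 1 dpi, 7.98, 7.62 and 8.47 at 3 dpi, 6.46, 7.18 and 6.49 at 7 dpi, 6.66, 6.15 and 6.83 at 14 dpi, as well as 5.53, 5.59 and 5.44 at 90 dpi. Every pool of the first 5 injured groups lay above every control pool, and the 90 dpi pools lay among the controls. The rise against control was 3.86 ± 0.30 at 1 dpi (14.5-fold, adjusted p = 3.5e-08). The gene caspa was the single tested member called between 3 and 1 dpi (-1.198 ± 0.30, adjusted p = 0.03). It was also called lower at 7 dpi than at 3 dpi (-1.31) and at 90 dpi than at 14 dpi (-1.03). The call from 1 to 3 dpi was lost without 1 dpi replicate 2, 1 dpi replicate 3, 3 dpi replicate 1 or 3 dpi replicate 2. That from 3 to 7 dpi was lost without 3 dpi replicate 3, 7 dpi replicate 1 or 7 dpi replicate 3. The call against control at 14 dpi (1.19) was lost without control replicate 1, 14 dpi replicate 1 or 14 dpi replicate 3 (adjusted p = 0.052 to 0.062).

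Leukocyte markers were raised after injury, as caspa was. At 90 dpi pan-leukocyte genes were still mostly higher, as were 4 of the 8 measured macrophage markers. Of the 8 measured neutrophil markers 1 was higher and 1 lower at that time. The mean log2 signal of 10 pan-leukocyte genes was 7.70 to 8.46 in the 4 hpi pools, 9.56 to 10.08 at 1 dpi, 9.05 to 9.60 at 3 dpi and 7.39 to 7.67 at 90 dpi, against 6.68 to 6.89 in control. Of these genes 8, 10, 10, 8, 7 and 7 were higher at the 6 times in order, and none was lower. Of all features 21.3%, 22.0%, 20.7%, 14.5%, 9.39% and 11.2% were higher at these times. In the other direction, 17.5% were lower at 4 hpi and 7.68% at 90 dpi. At 4 hpi 6 of the 8 measured neutrophil markers stood above control and 1 below it, and of the 8 macrophage markers 2 stood above and 1 below. At 3 dpi 7 macrophage markers stood above control. Epicardium and fibroblast markers were 1 above and 6 below control of 10 at 4 hpi, and 8 were above it at 3 dpi. The part of these cells in the level of caspa, or of any other gene given here, was not tested. A second inflammatory caspase, caspb, stayed below the filter, with a highest log2 signal of 4.95 on the feature used and 5.26 on a second one.

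Genes of the pyroptosis and necroptosis pathways were read beside caspa. Of 7 listed genes 5 were tested, of which 2 were higher and 1 lower at 4 hpi, and 3, 4, 3, 1 and 0 were higher at the later times in order. Array-wide, calls above control took up 21.3%, 22.0%, 20.7%, 14.5%, 9.39% and 11.2% of the tested features from 4 hpi to 90 dpi. Calls below control took up 17.5% of them at 4 hpi. The 2 largest rises at 1 dpi were those of il1b, the cytokine that caspase 1 matures in mammals (3.50), and pycard, the adaptor of the inflammasome (2.61). At 4 hpi il1b had the largest rise (5.55), the difference of pycard was -0.21, and ninj1, whose product takes part in membrane rupture, was lower (-1.54).

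The death receptor fas was high at every time. Its log2 signals were 5.62, 5.70 and 5.59 in control, 8.49, 8.19 and 7.77 at 4 hpi, 8.68, 8.20 and 8.63 at 1 dpi, 8.53, 7.70 and 8.35 at 3 dpi, 8.01, 8.14 and 8.46 at 7 dpi, 8.19, 7.27 and 8.45 at 14 dpi, as well as 7.63, 7.67 and 7.42 at 90 dpi. The lowest injured pool was thus above the highest control pool by more than the range of the controls. The differences from control lay between 1.93 ± 0.27 at 90 dpi (adjusted p = 0.00041) and 2.86 ± 0.27 at 1 dpi (adjusted p = 2.5e-07), and no step between successive times passed the test. At 90 dpi fas was the single member past an adjusted p of 0.001.

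A second death receptor, tnfrsf21, had a short pulse. Its log2 signal was 7.30, 6.87 and 6.93 at 4 hpi and 5.35, 6.39 and 5.78 at 1 dpi, against 4.53, 4.59 and 4.82 in control. The pools of both times lay above control, by 2.39 ± 0.21 and 1.19 ± 0.21 (adjusted p = 2.3e-07 and 0.00019), and the step from 4 hpi to 1 dpi was a fall (-1.197, adjusted p = 0.0002). The control pools were below the array medians, so this rise may be understated by the floor of the array. The difference of 0.62 at 3 dpi was lost without control replicate 1, control replicate 2, 3 dpi replicate 1 or 3 dpi replicate 3 (adjusted p = 0.054 to 0.089), and from 7 dpi on the differences were 0.08 to 0.22. The third receptor gene, tnfrsfa, a member of the tumour necrosis factor receptor superfamily, was lower at 1 dpi (-0.46), a call lost without any of 4 pools (adjusted p = 0.071 to 0.11).

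Below the receptors, the adaptor tradd was higher by 0.76 at 4 hpi and had its largest difference at 3 dpi (1.07 ± 0.14). Its log2 signals at 3 dpi were 7.73, 7.59 and 8.00, and at 1 dpi 7.53, 7.84 and 7.80, against 6.66, 6.63 and 6.80 in control, with no overlap. The kinase gene ripk1l, named for Ripk1, which can turn receptor signals towards survival or death, differed from control by 0.11 at 4 hpi and was higher at 1 dpi (7.97, 8.12 and 8.27, against 7.24, 7.21 and 7.45 in control, a difference of 0.82 ± 0.12) and at 3 dpi (0.47). The adaptor fadd, which links Fas to caspase 8, had differences of 0.41 and 0.42 at 4 hpi and 1 dpi, and both calls were lost without any 1 of the 6 pools (adjusted p = 0.063 to 0.14). The c-FLIP gene cflara was higher by 1.07 ± 0.18 at 4 hpi. Its rise of 0.73 at 14 dpi was lost without 14 dpi replicate 3 (adjusted p = 0.058), and that of 0.50 at 1 dpi was lost without any of 5 pools (adjusted p = 0.052 to 0.12).

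The ligands and NF-kB genes of the same receptors were followed as a list. Of 21 listed genes 16 were tested, with 8, 8, 11, 6, 2 and 2 higher at the 6 times in order, 4 lower at 4 hpi and 1 lower at 7 dpi. Over all features 21.3%, 22.0%, 20.7%, 14.5%, 9.39% and 11.2% were higher at these times, and 17.5% and 8.02% were lower at 4 hpi and 7 dpi. The gene of the Fas ligand, faslg, stayed under the signal filter, as did tnfa and the adaptor gene traf1. At 4 hpi the inhibitor of NF-kB nfkbiaa (2.14) and the receptor tnfrsf1b (1.54) had the largest rises, and the ligand genes tnfsf12 (-2.99) and tnfsf10l (-1.19) the largest falls. At 1 dpi the largest rises were those of tnfb (2.72) and tnfrsf1b (2.05).

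**Figure D2:**
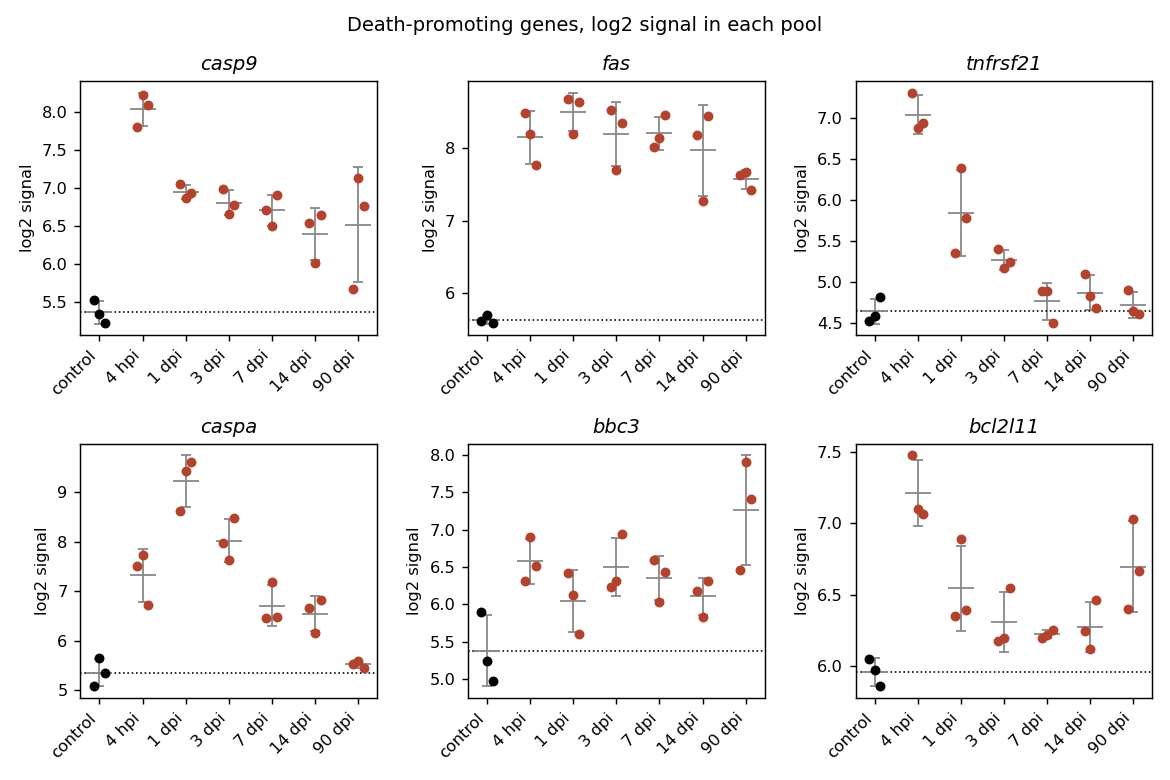
Log2 signal (y axis) of 6 death-promoting genes in each of the 21 pools (points), by time after cryoinjury (x axis, uninjured control at left), with group mean and SD in grey and the control mean as a dotted line. The pulse of tnfrsf21 ends by 7 dpi, caspa peaks at 1 dpi, fas stays above control throughout, and bbc3 has its highest mean at 90 dpi.

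All 4 tested BH3-only genes, whose proteins start the mitochondrial route, were higher at 4 hpi, beside 21.3% of all features. Of these genes, bbc3, bcl2l11 and bmf1 had a control mean under the filter's log2 signal of 6. No control pool of bbc3 or bmf1 exceeded it, so these passed through injured pools alone. The log2 signals of bcl2l11, which encodes Bim, were 7.48, 7.10 and 7.06 at 4 hpi, against 6.05, 5.97 and 5.86 in control, a difference of 1.26 ± 0.18 (adjusted p = 2.6e-05). The log2 signals of bmf1 were 6.12, 5.97 and 6.01 at 4 hpi, against 4.96, 5.06 and 4.75 in control, a difference of 1.11 ± 0.17 from a control level under the array medians. Those of bida, which encodes Bid, the link from caspase 8 to mitochondria, were 7.60, 8.15 and 7.71 at 4 hpi, against 7.10, 6.84 and 6.45 in control (1.02 ± 0.19). None of these 3 genes overlapped with control at 4 hpi. The later calls of these 3 genes, at 1 dpi (0.59, 0.48 and 0.70 in the order given), 3 dpi (0.48 for bmf1 and 0.65 for bida) and 7 dpi (0.59 for bida), were each lost without at least 1 pool. They were lost without 1 dpi replicate 2 for bcl2l11 at 1 dpi (adjusted p = 0.084) and without control replicate 3 for bida at 1 dpi (0.051). At 1 dpi bmf1 was lost without control replicate 1 or 3 or 1 dpi replicate 1 or 2 (0.055 to 0.12), and at 3 dpi without control replicate 1 or 3 or 3 dpi replicate 3 (0.061 to 0.18). At 3 dpi bida was lost without control replicate 3 or 3 dpi replicate 3 (0.054 to 0.081), and at 7 dpi without control replicate 2 or 3 or 7 dpi replicate 2 or 3 (0.066 to 0.17).

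The BH3-only gene bbc3, which encodes Puma, a p53 target in mammals, had its highest level at the end of the series. Its log2 signals were 5.90, 5.25 and 4.98 in control, 6.31, 6.91 and 6.51 at 4 hpi, 6.41, 6.13 and 5.60 at 1 dpi, 6.24, 6.31 and 6.95 at 3 dpi, 6.60, 6.03 and 6.43 at 7 dpi, 6.18, 5.84 and 6.31 at 14 dpi, as well as 6.46, 7.91 and 7.41 at 90 dpi. Pools at 1 and 14 dpi overlapped with control, and those of the other 4 times did not. The difference was 1.198 ± 0.33 at 4 hpi (adjusted p = 0.0079) and 1.88 ± 0.33 at 90 dpi (3.69-fold, adjusted p = 0.0014). At 90 dpi bbc3 was also higher than at 14 dpi, by 1.15 ± 0.33 (adjusted p = 0.033). Of the 2 members higher in this step, 1 was left without 14 dpi replicate 1, 14 dpi replicate 3 or 90 dpi replicate 2. Which of the 2 was lost was not recorded. The calls of bbc3 against control at 4 hpi and 90 dpi held without any 1 pool. Those at 3 dpi (1.12) were lost without control replicate 3 or 3 dpi replicate 3 (0.065 to 0.072) and at 7 dpi (0.98) without control replicate 2 or 3 or 7 dpi replicate 1 or 3 (0.10 to 0.16). Among the BH3-only genes below the filter, pmaip1, which encodes Noxa, had 5.73, 5.85 and 5.91 at 4 hpi, against 4.82, 4.97 and 5.07 in control, and bmf2 had 4.65 to 5.23, against 4.15 to 4.48 in control, both without a test.

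The pore-forming pair baxa and baxb was called in opposite directions at 90 dpi. The log2 signals of baxa were 8.16, 8.34 and 8.40 at 4 hpi, against 7.42, 7.36 and 7.56 in control, a rise of 0.86 ± 0.10 (adjusted p = 4.7e-06). At 90 dpi they were 7.16, 7.17 and 7.01, all below control, with a difference of -0.33 ± 0.10 (adjusted p = 0.029). The log2 signals of baxb were 5.75, 5.97 and 5.65 at 90 dpi, against 5.22, 5.06 and 5.49 in control, with a difference of 0.53 ± 0.16. The 90 dpi call of baxa was lost without control replicate 1, control replicate 3, 90 dpi replicate 2 or 90 dpi replicate 3 (adjusted p = 0.054 to 0.12), and that of baxb without control replicate 1, control replicate 2 or 90 dpi replicate 2 (0.064 to 0.12). The difference of baxb was 0.71 at 1 dpi, the one of its 5 calls that held without any 1 pool. The calls of baxa at 1 dpi (0.30) and 14 dpi (0.36) were also lost, without 4 and 5 of the pools in turn (0.053 to 0.10). The related boka and bokb stayed below the filter, at no more than 5.91 and 4.26.

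The Bcl2-like guardians were raised at 4 hpi and then divided. At 4 hpi 4 of the 5 were higher, beside 21.3% of all features, and the fifth, bcl2l10, differed by 0.40 ± 0.19 (adjusted p = 0.12). The gene bcl2l1, which encodes Bcl-xL, had log2 signals of 8.44, 8.33 and 8.15 in control, 9.11, 9.25 and 9.18 at 4 hpi, 8.08, 8.11 and 8.14 at 1 dpi, 7.97, 7.93 and 7.71 at 3 dpi, 7.82, 8.02 and 7.97 at 7 dpi, 8.19, 8.23 and 8.32 at 14 dpi, as well as 7.94, 7.73 and 7.66 at 90 dpi. It stood above all control pools at 4 hpi (0.87 ± 0.11, adjusted p = 8.4e-06) and below all of them at 1, 3, 7 and 90 dpi. The differences at 3 and 90 dpi were -0.44 ± 0.11 and -0.53 ± 0.11 (adjusted p = 0.0041 and 0.0035). The drop between 4 hpi and 1 dpi was called as well (-1.07 ± 0.11, adjusted p = 8.1e-07). The call at 7 dpi (-0.37) was lost without control replicate 1, control replicate 2 or 7 dpi replicate 1 (adjusted p = 0.061 to 0.088).

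The gene bcl2l10, whose protein restrains apoptosis in the zebrafish embryo, was lower at 1, 3, 7 and 90 dpi and not at 14 dpi (-0.27 ± 0.19, adjusted p = 0.39). Its log2 signals were 9.40, 9.65 and 9.65 at 1 dpi, 9.68, 9.75 and 9.26 at 3 dpi, as well as 9.72, 9.23 and 9.27 at 90 dpi, against 10.09, 10.41 and 10.59 in control. None of these pools reached the lowest control pool. Against control bcl2l10 differed by -0.80 ± 0.19 on day 1 (adjusted p = 0.0034), -0.80 on day 3 (0.0035) and -0.96 ± 0.19 on day 90 (0.0034). A second feature of bcl2l10 followed the first over the 21 arrays (r = 0.884, as a description). The fall at 7 dpi (-0.58) was lost without control replicate 2, control replicate 3 or any of the 7 dpi pools (adjusted p = 0.061 to 0.16).

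The 2 mcl1 paralogs, which encode short-lived guardians, both rose at 4 hpi and had different calls later. The log2 signals of mcl1a were 10.03, 10.04 and 9.85 at 4 hpi, against 9.13, 8.71 and 8.74 in control (1.11 ± 0.13), and those of mcl1b were 10.73, 10.71 and 11.08, against 9.49, 9.71 and 9.84 in control (1.16 ± 0.14). At 1 dpi mcl1a was still higher (9.48, 9.84 and 9.65, by 0.80 ± 0.13), while mcl1b had 10.02, 10.16 and 9.85 (0.33 ± 0.14, adjusted p = 0.078). At 14 dpi mcl1b was higher (10.62, 10.24 and 10.49, by 0.77 ± 0.14, adjusted p = 0.0018), and mcl1a differed by 0.09. The difference between the paralogs was not tested. A second, dimmer feature of mcl1a followed the first only loosely (r = 0.381), and with the mean of both features mcl1a differed by 0.53 at 4 hpi (adjusted p = 0.0093), 0.31 at 1 dpi (0.11) and 0.27 at 3 dpi (0.17). The founding guardian bcl2a was higher at 4 hpi (0.77), at 1 dpi (9.38, 8.82 and 8.96, against 7.84, 8.26 and 8.40 in control, by 0.88 ± 0.21) and at 14 dpi (1.00 ± 0.21), and lower at 90 dpi than at 14 dpi (-0.88, adjusted p = 0.015).

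**Figure D3:**
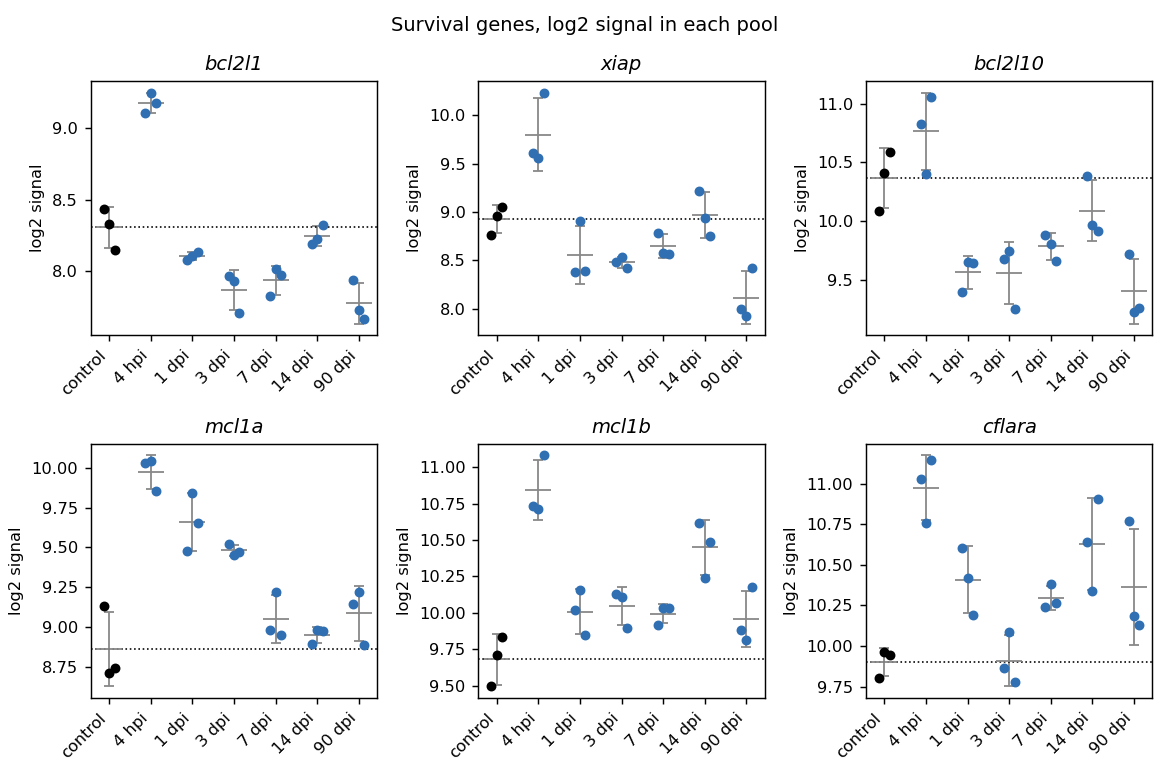
Log2 signal (y axis) of 6 survival genes in each of the 21 pools (points), by time after cryoinjury (x axis, uninjured control at left), with group mean and SD in grey and the control mean as a dotted line. The pools of bcl2l1 and xiap lie above control at 4 hpi and below it at 90 dpi, and mcl1b and cflara have a second high at 14 dpi.

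Of the inhibitors of apoptosis, xiap, whose protein binds and blocks caspases, was high at the start and low at the end. Its log2 signals were 9.60, 9.56 and 10.23 at 4 hpi, as well as 7.99, 7.93 and 8.43 at 90 dpi, against 8.77, 8.96 and 9.05 in control. It lay above control at 4 hpi (0.87 ± 0.19, adjusted p = 0.0015) and below it at 90 dpi (-0.81 ± 0.19, adjusted p = 0.0084), with no overlap at either time. At 1 and 3 dpi it differed by -0.37 and -0.45, neither called, although the drop between 4 hpi and 1 dpi was (-1.24 ± 0.19). The gene birc2, which encodes cIAP1, had 8.79, 9.17 and 9.06 at 90 dpi, against 9.32, 9.33 and 9.33 in control. The difference of -0.32 ± 0.10 was lost without any control pool or 90 dpi replicate 1 (adjusted p = 0.064 to 0.12).

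Of the 4 genes of mitochondrial proteins that promote death once released, 2, 3, 2, 1, 2 and 1 were lower at the 6 times in order, and 1 was higher at 7 dpi. Over all features 17.5%, 16.5%, 14.9%, 8.02%, 4.57% and 7.68% were lower at these times, and 14.5% were higher at 7 dpi. The gene aifm1, whose protein is also needed for the respiratory chain, was lower at 5 times. Its log2 signals were 11.66, 11.73 and 11.68 in control, 11.10, 10.93 and 11.05 at 4 hpi, 10.73, 10.64 and 10.73 at 1 dpi, 10.69, 10.83 and 10.63 at 3 dpi, 11.23, 11.17 and 11.13 at 7 dpi, 11.33, 11.26 and 11.35 at 14 dpi, as well as 11.57, 11.56 and 11.44 at 90 dpi. Every injured pool was below every control pool. The differences were -0.66, -0.98, -0.97, -0.51 and -0.38 from 4 hpi to 14 dpi (SE 0.09, adjusted p between 1.7e-07 and 0.009), all of which held without any 1 pool, and -0.16 at 90 dpi (adjusted p = 0.21). Between 3 and 7 dpi aifm1 rose by 0.46 (adjusted p = 0.0048).

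The nuclease gene endog had log2 signals of 7.48, 7.69 and 7.39 at 1 dpi, 7.87, 7.86 and 7.37 at 3 dpi, as well as 8.04, 6.47 and 7.21 at 90 dpi, against 8.65, 8.82 and 8.45 in control. All of these pools were below control. The differences were -1.13 ± 0.28 at 1 dpi, -0.94 at 3 dpi and -1.40 ± 0.28 at 90 dpi (adjusted p = 0.0038, 0.013 and 0.0031), the 90 dpi pools being the most scattered. The call at 3 dpi was lost without control replicate 2 or 3 dpi replicate 3 (adjusted p = 0.051 to 0.069), and that at 90 dpi in a fit of the 6 arrays alone (0.068). The gene diabloa, whose protein relieves caspases of Xiap, had 4.94, 5.17 and 5.16 at 4 hpi, against 6.05, 6.07 and 6.00 in control (-0.96 ± 0.14, adjusted p = 4.7e-05), a level at the array medians. It was lower again at 14 dpi (-0.64, adjusted p = 0.0059) and higher at 90 dpi than at 14 dpi (0.78). Its paralog diablob differed from control by -0.27 at 4 hpi, and its rise at 7 dpi (0.49) was lost without control replicate 1, control replicate 3 or 7 dpi replicate 2 (adjusted p = 0.055 to 0.072). The call of diabloa at 1 dpi (-0.40) was lost without any of 5 pools (0.058 to 0.11).

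The calls of cardiomyocyte markers were all below control. Of the 10 measured, 3, 5, 4, 2, 1 and 1 were lower at the 6 times in order and none was higher, beside 17.5%, 16.5%, 14.9%, 8.02%, 4.57% and 7.68% of all features lower, with median differences of -0.10, -0.26, -0.24, -0.18, -0.16 and -0.12. Their mean log2 signal was 11.83 to 11.91 in the 1 dpi pools, against 12.18 to 12.26 in control. The part of a smaller share of heart muscle RNA in the level of aifm1 or endog was not tested.

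**Figure D4:**
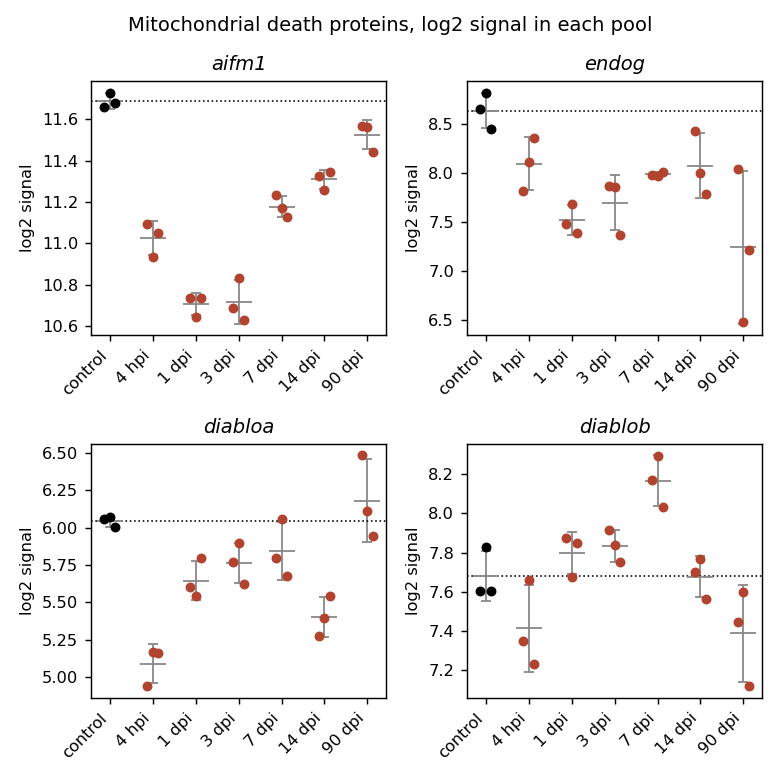
Log2 signal (y axis) of 4 genes of mitochondrial death proteins in each of the 21 pools (points), by time after cryoinjury (x axis, uninjured control at left), with group mean and SD in grey and the control mean as a dotted line. All injured pools of aifm1 lie below control, closest at 90 dpi, whereas the 90 dpi pools of endog range between 6.47 and 8.04.

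The mitophagy receptor genes bnip3 and bnip3lb, whose proteins mark mitochondria for removal and can promote death, were not called at 4 hpi. The gene bnip3lb was lower at 1 dpi (-0.51 ± 0.10) and 3 dpi (-0.56) and rose between 3 and 7 dpi (0.35, adjusted p = 0.033). The gene bnip3 was the single tested member called at none of the 6 times. Its log2 signals at 90 dpi were 9.50, 9.96 and 9.57, against 8.91, 8.78 and 8.91 in control, without overlap (0.81 ± 0.28, adjusted p = 0.051).

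Of the stress genes, gadd45bb had log2 signals of 5.80, 5.66 and 6.07 at 4 hpi and 5.56, 5.76 and 6.20 at 1 dpi, against 4.34, 4.74 and 4.47 in control. The differences were 1.33 ± 0.24 and 1.32 ± 0.24, which may be understated because the control pools were under the array medians. It was still higher at 3 dpi (1.04), and the call at 7 dpi (0.82) was lost without control replicate 1, control replicate 3 or 7 dpi replicate 2 (adjusted p = 0.056 to 0.11). Its paralog gadd45ba had 9.88, 10.06 and 10.08 at 4 hpi, against 9.54, 10.05 and 9.65 in control, and 9.01, 8.42 and 9.53 at 1 dpi (-0.76 ± 0.23, a call lost without control replicate 2 or 1 dpi replicate 2, adjusted p = 0.075 to 0.10). The third, gadd45aa, stayed under the filter, at no more than 5.90. The brake on p53, mdm2, itself a p53 target in mammals, was higher by 0.64 ± 0.12 at 4 hpi. Its calls at 1, 3 and 7 dpi (0.40, 0.43 and 0.45) were lost without control replicate 2, among others (adjusted p = 0.052 to 0.071).

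Calls in a list of p53 and other p53 targets went in both directions. Among 13 tested genes 3 calls were above control and 6 below it at 4 hpi, 4 above and 1 below at 3 dpi, and 1 above and 1 below at 90 dpi. Of all features 21.3% were above and 17.5% below at 4 hpi, 20.7% and 14.9% at 3 dpi, and 11.2% and 7.68% at 90 dpi. At 4 hpi phlda3 (1.68) and tp53inp1 (1.57) had the largest rises and ddb2 (-1.69) and sesn3 (-1.27) the largest falls. At 90 dpi, when bbc3 was high, tp53inp1, a stress-induced gene of p53 signalling, was higher by 1.07 and tigara, a regulator of glycolysis, was lower (-0.63).

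Other genes of the apoptosis machinery, outside the 46, were followed as a list of 57, of which 38 were tested. Of these 8 were above control and 10 below at 4 hpi, 12 and 15 at 1 dpi, and 5 and 4 at 90 dpi, beside 21.3% and 17.5%, 22.0% and 16.5%, and 11.2% and 7.68% of all features. At 4 hpi the largest rise was that of casp10, a caspase of the death receptor route (1.51), and the largest falls were those of dedd1 (-2.12) and bnip1a (-1.33). At 1 dpi the inhibitor of apoptosis genes birc7 (3.06) and birc5a (2.31) had the largest rises.

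A day after the injury fewer survival genes were above control than at 4 hpi. At 1 dpi 20 genes were higher than in control and 7 lower, over a background of 22.0% and 16.5% of all features, with 13 of 20 death-promoting genes higher and 4 lower, and 4 of 9 survival genes higher and 1 lower. The 11 genes with a control mean under the filter gave 10 of the 20 higher calls, and the other 24 genes gave 10 higher and 7 lower. As none of the 11 is a survival gene, class and control signal cannot be told apart for these higher calls. Set directly against 4 hpi, 1 dpi had 5 members higher and 13 lower, with 19.4% and 15.0% of all features. Of the 9 survival genes 5 were lower and 0 higher in this step (bcl2l1, bcl2l10, mcl1b, cflara and xiap), and of the 20 death-promoting genes 6 were lower and 4 higher. Whether the classes differed in this was not tested.

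The counts then declined. At 3 dpi 15 members were higher and 5 lower (20.7% and 14.9% of all features), at 7 dpi 11 and 3 (14.5% and 8.02%), and at 14 dpi 9 and 2 (9.39% and 4.57%). Among the 24 genes with a control mean of 6 or more these counts were 6 and 5 at 3 dpi, 4 and 3 at 7 dpi, as well as 5 and 2 at 14 dpi. The steps between these times held few calls. From 1 to 3 dpi 0 members were higher and 1 lower (2.72% and 1.27% of all features), and at an unadjusted p under 0.05 these counts were 1 and 6. From 3 to 7 dpi 2 were higher and 1 lower (2.11% and 4.86%). From 7 to 14 dpi none was called by limma (0.813% and 1.57%), with 4 higher and 4 lower at an unadjusted p under 0.05. The 11 higher at 7 dpi became 6 without control replicate 3, and the 9 at 14 dpi became 3 without 14 dpi replicate 3. Each array was also centred on its median, which lowered the differences of all features. The median shift was 0.13 at 4 hpi, 0.18 at 1 dpi, 0.14 at 3 dpi, 0.10 at 7 dpi and 0.12 at 14 dpi. The members higher and lower were then 13 and 10 at 1 dpi, 11 and 8 at 3 dpi, as well as 7 and 4 at 7 dpi. Of all 35783 tested features, 5623 were then higher and 9508 lower at 1 dpi, and 5848 and 8159 at 3 dpi. At 7 dpi these array-wide counts were 3993 and 4610.

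**Figure D5:**
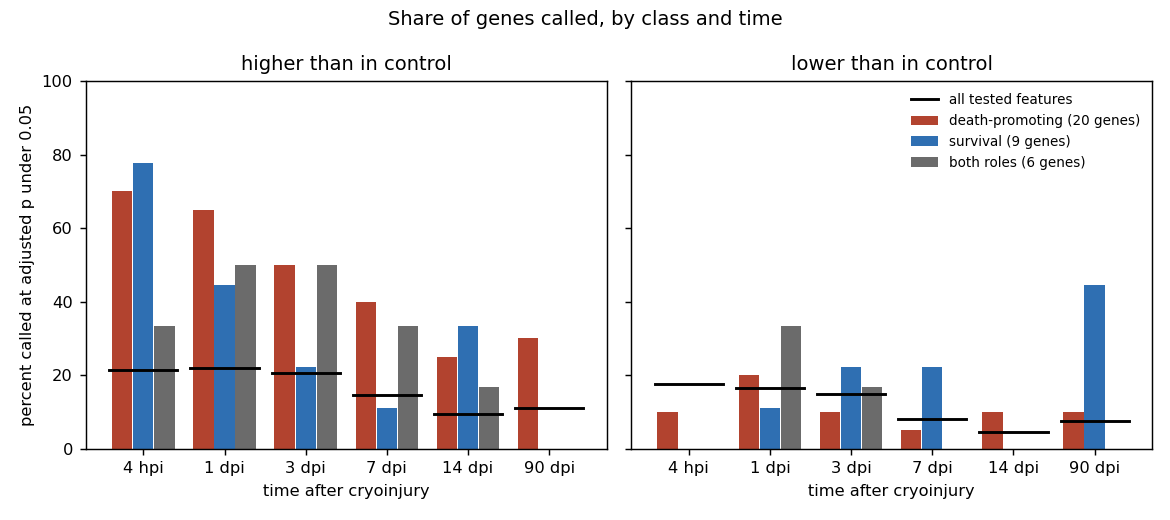
Percent of tested genes called higher (left) or lower (right) than in control (y axis) at each time after cryoinjury (x axis), for 20 death-promoting, 9 survival and 6 genes of both roles (bars), with the percent of all tested features as black lines. At 4 hpi 7 of the 9 survival genes are higher, and at 90 dpi 4 of the 9 are lower and none is higher.

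At 90 dpi 6 members were higher and 6 lower, over a background of 11.2% and 7.68% of all features. All 6 higher ones were death-promoting (casp9, casp2, baxb, bbc3, bcl2l11 and fas), and the lower ones were 4 survival genes (bcl2l1, bcl2l10, xiap and birc2) and 2 death-promoting genes (baxa and endog). Of the 6 higher calls 5 were among the 11 genes with a control mean under the filter, none of which is a survival gene, and the other 24 genes gave 1 higher and 6 lower, so for the higher calls class and control signal cannot be told apart. None of the 9 survival genes was called higher by limma (1 after quantile normalization), with 2 higher at an unadjusted p under 0.05. The log2 signals of bcl2l11 at 90 dpi were 6.40, 7.03 and 6.66, all above control (0.74 ± 0.18, adjusted p = 0.0086), a call lost without 90 dpi replicate 2 (0.057). Without that pool 3 members remained higher. Of the 12 calls 7 (casp9, bbc3, fas, bcl2l1, bcl2l10, endog and xiap) held without any 1 pool. In a fit of the 6 arrays alone bbc3, fas, bcl2l10 and xiap stayed called (adjusted p = 0.011 to 0.046).

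Survival genes were also among the members lower at 90 dpi than at 14 dpi. In this step 2 members were higher (bbc3 and diabloa) and 7 lower, over a background of 4.29% and 7.03% of all features. The lower ones were 5 survival genes (bcl2a, bcl2l1, bcl2l10, mcl1b and xiap) and the death-promoting caspa and baxa. Of these, bcl2a and mcl1b had been called higher than control at 14 dpi and were not below it at 90 dpi. Their mean log2 signals at 90 dpi were 8.29 and 9.96, against 8.17 and 9.68 in control. The differences of bcl2l10, xiap and bcl2l1 were -0.68, -0.85 and -0.47 (adjusted p = 0.032, 0.011 and 0.012). Without 90 dpi replicate 2 the 7 became 2.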

How the data were processed

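RNA of 21 pools of 5 zebrafish heart ventricles was measured on Affymetrix Zebrafish Gene 1.0 ST arrays, 3 pools in each of 7 groups. The authors deposited a log2 signal for each feature, computed in Partek Genomics Suite by robust multi-array averaging (RMA), which corrects background, normalizes between arrays and summarises probes, and which compresses changes near the floor. The genome build and depth do not apply, and the number of arrays limits the precision. Features were named by the platform annotation, by symbol. Of 75212 features, 20806 had 1 symbol, 855 several and 53551 none, so 3 members (casp3a, bada and htra2) were not matched by symbol and not analysed here, and 2 (casp6a and bik) had only a feature shared with another gene and were not used. For genes with several features the one with the highest mean was taken. One feature of mdm2 shared with snrnp70 was not used. Groups came from the labels.

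Features over a log2 signal of 6 on at least 1 array (35783) were fitted with limma 3.58.1 in R 4.3.3 as 7 group means over all 21 arrays (14 residual degrees of freedom), with contrasts of each time with control and of successive times, empirical Bayes moderation and Benjamini-Hochberg adjustment over all tested features of a contrast. No test of a gene list was made. With 3 pools against 3, an exact permutation test cannot go below p = 0.1. The fit was tested on simulated data. Alternatives changed the filter, the scaling, the moderation, the arrays fitted, the threshold and the pools included. Pool values are given for members among the 10 largest called changes at 4 hpi, 1 dpi or 3 dpi, for all called at 90 dpi and for their paralogs, and other values shown were added for context. The members and lists were chosen with earlier results of these data known.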

Additional observations from a re-analysis of the deposited data

Results flagged for a closer look

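Among the tested members, 3 were called higher than in control at 1 time and lower at another. The direct contrast between those times passed the test in each case (limma, same fit). These members were picked by opposite calls against the same controls, so the direct contrasts were bound to be large and are no further support. The pore-former baxa was lower at 90 dpi than at 4 hpi by a log2 difference of -1.19 (SE 0.10, adjusted p = 1.6e-07), than at 1 dpi by -0.63 (adjusted p = 0.00011) and than at 14 dpi by -0.69 (adjusted p = 0.00088). The calls of baxa against control at 1, 14 and 90 dpi were each lost without at least 4 of the pools in turn. The guardian bcl2l1 was lower than at 4 hpi by -1.31 at 3 dpi (SE 0.11, adjusted p = 5.7e-08), by -1.24 at 7 dpi (1.9e-07) and by -1.40 at 90 dpi (6.3e-08). The caspase inhibitor xiap was lower at 90 dpi than at 4 hpi by -1.68 (SE 0.19, adjusted p = 2.7e-06). In bcl2l1 and xiap all 3 pools of 4 hpi lay above and all 3 pools of 90 dpi below the control pools.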

How the results depend on the processing

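No called change of a member turned its direction under any alternative run, and what changed was the count of calls. At an adjusted p under 0.001, 9 death-promoting genes were higher at 4 hpi. At 1 dpi 9 members were higher (5 death-promoting, 1 survival) and 2 lower, at 3 dpi 5 (4 and 0) and 2, at 7 dpi 1 (1 and 0) and 1, at 14 dpi 1 (1 and 0) and 0, and at 90 dpi 1 (1 death-promoting) and 0. Against 4 hpi 1 dpi then had 2 higher and 7 lower, and the later steps 0, apart from 1 lower at 90 dpi against 14 dpi. With a change of at least 1.6-fold also asked, 1 member was lower at 4 hpi. At 1 dpi 11 were higher (6 death-promoting, 2 survival) and 4 lower, at 3 dpi 6 (4 and 0) and 3, at 7 dpi 6 (4 and 0) and 0, at 14 dpi 3 death-promoting genes were higher and 0 members lower, and at 90 dpi 3 members were lower. The steps were 2 higher and 7 lower for 1 dpi against 4 hpi, and 0 higher for 7 against 3 dpi. Shares of all features at these stricter thresholds are not given, so these counts cannot be set against the array as a whole.

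With arrays centred on the median of their tested features, 13 members were higher at 1 dpi (8 death-promoting, 2 survival), 8 lower and 1 survival gene higher at 3 dpi, 7 higher at 7 dpi (5 and 0), 3 death-promoting genes higher at 14 dpi, 1 lower at 14 against 7 dpi and 4 higher at 90 against 14 dpi. Of all 35783 features, 5623 were then higher at 1 dpi, 8159 lower at 3 dpi, 3993 higher at 7 dpi and 2352 higher at 14 dpi. Quantile normalization gave 3 death-promoting genes higher at 14 dpi, 1 survival gene higher at 90 dpi, 1 member higher at 7 against 3 dpi and 1 lower at 14 against 7 dpi. With only the 6 arrays of a comparison fitted, 1 survival gene was higher at 3 dpi, 1 member lower and 3 death-promoting genes higher at 14 dpi, and 3 members (2 death-promoting) higher and 2 lower at 90 dpi, with 0 calls in the steps after 1 dpi. With no filter 1 member was higher at 90 against 14 dpi, with trend and robust moderation 2 were lower at 7 against 3 dpi, and with the mean over a gene's features 1 survival gene was higher at 3 dpi. With the genes of both roles counted as survival genes, 7, 5 and 3 were higher at 1, 3 and 7 dpi. The cause of these shifts was not tested, apart from the stricter thresholds and the fewer arrays, which are the alternatives themselves.

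Leaving out 1 pool in turn, the members lower at 1 dpi numbered 4 to 7 and the survival genes higher 2 to 3. At 3 dpi 5 to 10 death-promoting and 1 to 4 survival genes were higher. At 7 dpi 6 to 9 members were higher (5 to 6 death-promoting, 0 to 1 survival) and 1 to 2 lower. At 14 dpi 3 to 8 were higher (1 to 4 death-promoting), and at 90 dpi 3 to 7 (3 to 6 death-promoting, 0 to 1 survival). The steps gave 0 to 1 higher and 0 to 2 lower at 3 against 1 dpi, 1 to 2 higher and 0 to 2 lower at 7 against 3 dpi, and 1 to 3 higher and 2 to 7 lower at 90 against 14 dpi. Of the 25 calls at 4 hpi 22 held without any 1 pool, as did 17 of 27 at 1 dpi, 13 of 20 at 3 dpi, 6 of 14 at 7 dpi, 5 of 11 at 14 dpi and 7 of 12 at 90 dpi.

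Pools share replicate numbers across groups, but nothing ties a number to an experiment or day. Deviations of pools with the same number correlated at -0.151 to 0.201 (median 0.011), those with other numbers at -0.206 to 0.221, and 9 of 21 pools correlated best with their own number. With the replicate number as a block 1 member was lower at 14 against 7 dpi and the other counts stayed within 1.5 times.

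Signal limits the dimmest genes. The control means of bmf1, gadd45bb and tnfrsf21 lay under the array medians. The effect of the floor of the array on the size of their rises was not tested. A further 6 members (caspb, boka, bokb, pmaip1, bmf2 and gadd45aa) stayed below the filter.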
